A study of Mus musculus with 6 samples.

Results

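Hemidesmosomes are the plaques that rivet the basal layer of the epidermis to the basement membrane beneath it. Expression of 9 genes of this anchorage was followed in ear skin of mice lacking Ufl1 in keratinocytes. The genes are Itga6, Itgb4, Itga3, Col17a1, Dst, Plec, Lama3, Lamb3 and Col7a1. They were taken by symbol from a count table of 54532 genes, each symbol matched 1 row, and all 9 were among the 17318 genes that passed the filter on low counts. They were chosen by name, for the known make-up of the structure, with earlier results of these data known.

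In a hemidesmosome the integrin of the alpha 6 and beta 4 chains and the transmembrane collagen XVII reach out of the cell, and the plakins plectin and BP230 (a product of Dst) tie them to keratin filaments inside. Outside the cell the integrin holds the main laminin of the epidermal basement membrane, to which Lama3 and Lamb3 each contribute a chain, and anchoring fibrils of collagen VII hold the basement membrane to the dermis. Loss of any of these components in people or mice leads to blistering of the skin or to weaker attachment, and the integrin of alpha 3 and beta 1 is another laminin receptor of basal keratinocytes outside the hemidesmosome.

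RNA came from ear skin of mice aged 3 months, in 6 libraries. Control libraries 1 to 3 were from mice with the genotype Ufl1f/+ or Ufl1f/f, without a Cre, and the labels do not say which library had which of these. The Ufl1 cKO libraries 1 to 3 were from Ufl1f/f KRT14Cre/+ mice, in which a Cre under the keratin 14 promoter deletes the floxed gene in the basal layer and in what grows from it. Floxed Ufl1 was thus shared by both groups, and what the Cre itself does and what the loss of Ufl1 does cannot be told apart. Ufl1 encodes the ligase that joins the small protein UFM1 to its targets. Whether the 6 libraries are from 6 different mice is not in the labels, and p-values therefore cover only the spread among these samples, which may be technical. Total counts ranged from 17256339 to 20776539. Values below are listed in the order of libraries 1, 2 and 3 of each group. Ufl1 itself was at 57.9, 47.0 and 46.1 CPM (counts scaled to a common library size) in the controls and at 34.9, 35.6 and 38.8 CPM in the cKO, with no overlap between the groups, a log2 fold change of -0.47 (SE 0.14) and an adjusted p of 0.778 in edgeR. The basal keratins that mark the layer under study were present in every library, with Krt14 at 1159 to 4560 CPM and Krt5 at 942 to 3624 CPM. In whole ear skin, fewer basal cells and less RNA per basal cell cannot be told apart.

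Upstream sequence is given for 3 start sites, those of Col17a1 and Col7a1, whose levels moved together most closely, and an internal start of Dst, which shows that the count of this gene pools transcripts with different starts. The sequences are from RefSeq on the build GRCm38.p6, the same coordinates as mm10, written 5′ to 3′ on the strand of the gene and ended before the first annotated exon base. They lie at chr19:47692095-47692292 on the minus strand for Col17a1, chr9:108953336-108953585 on the plus strand for Col7a1 and chr1:34160010-34160259 on the plus strand for Dst. Capitals mark a TATA box (TATAAA) or a GC box (GGGCGG), searched on both strands.
Col17a1: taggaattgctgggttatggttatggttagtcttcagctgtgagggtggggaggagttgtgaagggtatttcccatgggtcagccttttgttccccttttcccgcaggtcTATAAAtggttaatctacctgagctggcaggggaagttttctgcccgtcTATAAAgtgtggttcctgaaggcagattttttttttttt
Col7a1: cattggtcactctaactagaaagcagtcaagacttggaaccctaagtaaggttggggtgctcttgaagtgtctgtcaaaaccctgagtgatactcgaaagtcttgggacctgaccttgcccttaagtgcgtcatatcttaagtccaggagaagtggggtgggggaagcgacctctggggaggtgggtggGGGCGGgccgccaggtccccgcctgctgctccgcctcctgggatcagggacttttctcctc
Dst: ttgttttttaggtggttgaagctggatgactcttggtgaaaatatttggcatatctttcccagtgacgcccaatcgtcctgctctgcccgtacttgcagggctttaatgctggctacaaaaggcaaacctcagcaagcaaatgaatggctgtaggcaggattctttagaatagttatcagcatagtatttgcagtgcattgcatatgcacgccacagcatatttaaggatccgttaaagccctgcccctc

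The 250 bases before the Col17a1 start held 2 matches to TATAAA, starting 140 and 91 bases upstream of the RefSeq start, and no GC box. This start is at 47692042, and the printed Col17a1 sequence is only 198 bases of the window. It ends upstream of the start, so the distances cannot be counted from its last base. The 250 bases before the Col7a1 start held 1 GC box, 61 bases upstream, and no TATAAA, and the internal Dst start had neither. TATAAA was in 12.4% and GGGCGG in 32.7% of all 32851 promoter windows of this length. The AP-1 letters TGANTCA, present in 6.75% of the promoters, were in none of the 3 windows. The RefSeq promoter table had entries for 5 of the 9 genes. A letter match is a description and does not show that a factor binds there.

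None of the 9 genes passed the test between cKO and control. The edgeR quasi-likelihood test called 0 of 9 at an adjusted p under 0.05, and 0 of 9 had an unadjusted p under 0.05. Over all 17318 genes 0.0173% were called and 5.33% had an unadjusted p under 0.05, and a count of 0 of 9 is near these shares. The smallest unadjusted p among the 9 was that of Col7a1, at 0.132 in edgeR, 0.1 in DESeq2 and 0.238 in limma-voom, and neither of the latter tools called a member. Log2 fold changes lay between -0.60 and 0.09 with a median of -0.20, next to a median of -0.01 over all genes tested, and 7 of 9 were negative (52.2% of all genes). The median of the 9 turned with single controls, to 0.09 without control 2 and to -0.37 without control 1. For each of the 9 genes the range of the cKO libraries overlapped that of the controls. The groups did not overlap for 10.5% of all genes, and a count of 0 of 9 is near this share.

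**Figure D1:**
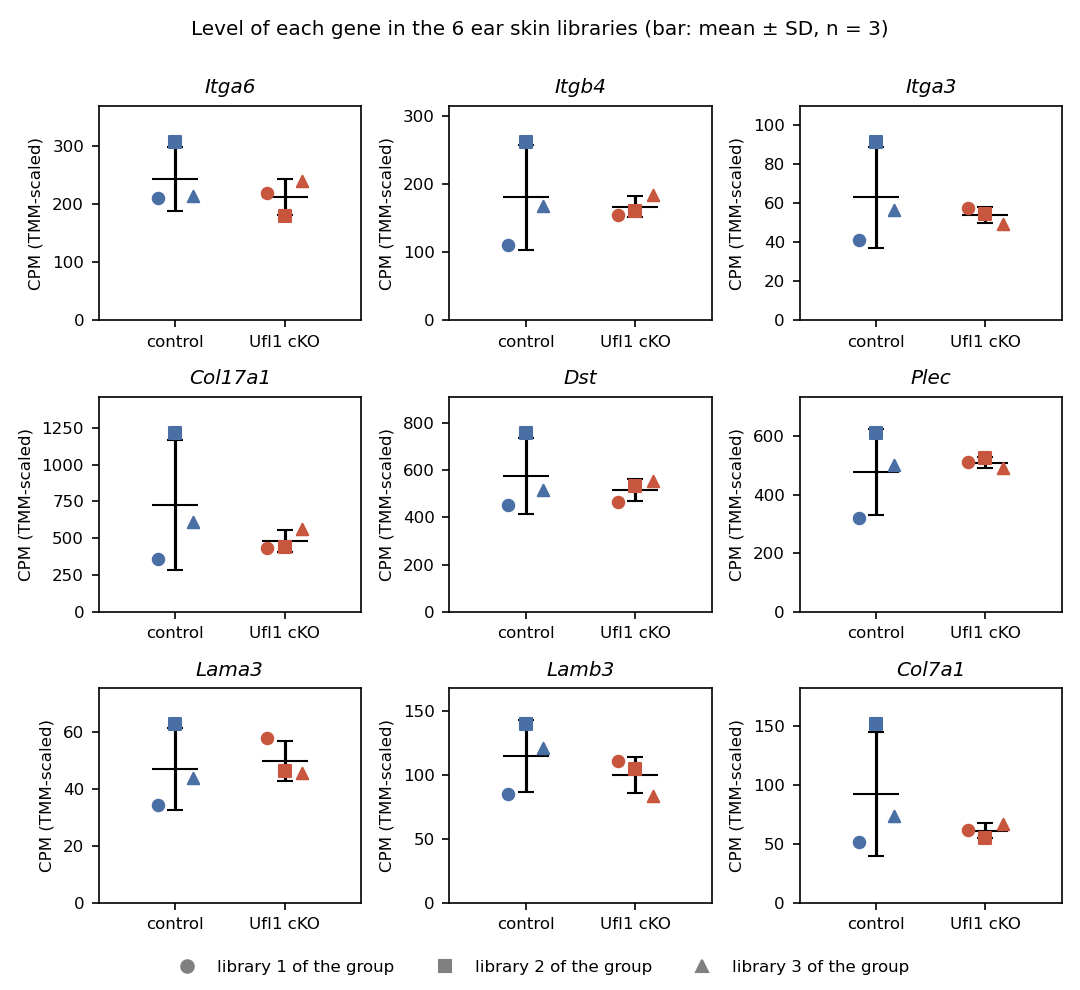
Level of each of the 9 genes in CPM (vertical axes, starting at 0) in the 3 control and 3 Ufl1 cKO libraries (points, with the shape giving the library number); horizontal bars and whiskers are the mean ± SD of 3 libraries. Control 2 is the highest point in all 9 panels, and for Col17a1 it stands at 1216 CPM above 359 to 606 CPM in the other 5 libraries.

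The integrin chains are described first. Itga6 (ENSMUSG00000027111, chromosome 2, 71745616 to 71858416, mm10) encodes the alpha 6 chain that binds this laminin. It was at 210, 307 and 213 CPM in the controls and at 218, 179 and 239 CPM in the cKO. Control 2 was high and cKO 2 low, and the other 4 libraries lay within 210 to 239 CPM. The means were 243 ± 54.8 and 212 ± 30.2 CPM (SD, n = 3 each), with a log2 fold change of -0.20 (95% interval -0.65 to 0.25).

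Itgb4 (ENSMUSG00000020758, chromosome 11, 115974709 to 116008412) encodes the beta 4 chain, which pairs only with alpha 6 and has a long tail inside the cell that binds plectin. Its levels were 111, 263 and 168 CPM in the controls and 155, 161 and 184 CPM in the cKO. All 3 cKO libraries lay between control 1 and control 2, and the controls spanned 2.37-fold against 1.19-fold in the cKO. The log2 fold change was -0.11 (95% interval -0.77 to 0.54). A long non-coding RNA on the opposite strand overlaps 7.66% of its exon length, and whether the counting used strand is unknown here. Itga3 (ENSMUSG00000001507, chromosome 11, 95044474 to 95076801), the alpha chain of the laminin receptor outside hemidesmosomes, was at 41.0, 91.3 and 56.3 CPM in the controls and at 57.4, 54.5 and 49.1 CPM in the cKO. It had the same order of controls as Itgb4, with a log2 fold change of -0.23 (95% interval -0.84 to 0.39).

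Collagen XVII crosses the membrane and binds the integrin, the plakins and laminin. Its gene Col17a1 (ENSMUSG00000025064, chromosome 19, 47646344 to 47692094), whose start site is printed above, was at 359, 1216 and 606 CPM in the controls and at 431, 442 and 565 CPM in the cKO. Control 2 had 3.39 times the level of control 1, while the cKO libraries were within 1.31-fold of each other. The mean was 727 ± 441 CPM in controls and 479 ± 74.3 CPM in the cKO (SD, n = 3 each). The log2 fold change of -0.60 (SE 0.40; edgeR unadjusted p = 0.170, adjusted p = 0.981) leaves 65.9% of the control level with a 95% interval of 34.8% to 125%, so neither a loss of a large part of the transcript nor no difference lies outside it. The value rested on single controls: without control 2 it was -0.01, and without control 1 it was -0.93 (edgeR unadjusted p = 0.0182, adjusted p = 0.434).

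The plakins link this complex to keratin. Plec (ENSMUSG00000022565, chromosome 15, 76170974 to 76232574) encodes plectin, which binds the beta 4 chain and keratin filaments and is also made in muscle, and was at 320, 611 and 501 CPM in the controls and at 512, 526 and 489 CPM in the cKO. The cKO libraries were within 1.08-fold, the narrowest span of the 9 genes, and sat between control 1 and control 2. The log2 fold change was 0.09 (95% interval -0.45 to 0.64), which became 0.31 without control 2 and -0.13 without control 1.

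Dst (ENSMUSG00000026131, chromosome 1, 33908225 to 34308661) encodes dystonin, whose epithelial form is the plaque protein BP230 and whose longer forms are made in nerve and muscle. Its levels were 455, 760 and 516 CPM in the controls and 464, 535 and 553 CPM in the cKO, with a log2 fold change of -0.16 (95% interval -0.67 to 0.35). The count pools all forms. The annotation GENCODE M21 lists 20 transcripts, of which Dst-213, Dst-217 and Dst-215 begin 70 bases after the internal start printed above and are 8788, 8961 and 16340 bases long, whereas the deposited gene length is 41155 bases. Markers of the other tissues that express Dst varied between libraries: the skeletal muscle list was lowest in cKO 3 (score -0.83) and highest in control 1 (0.59), and the Schwann cell list was highest in control 2 (0.52) and lowest in cKO 1 (-0.35), with 4 of its 10 genes lower in the cKO at an unadjusted p under 0.05 in edgeR (1.95% of all genes) and 0 called. A score is the mean over a list of log2 CPM relative to the mean of the 6 libraries. The part of these cells in the counts of Dst and Plec was not tested.

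Of the laminin chains, Lama3 (ENSMUSG00000024421, chromosome 18, 12333819 to 12583013) encodes alpha 3, the chain that integrins bind. It was at 34.4, 62.9 and 43.9 CPM in the controls and at 57.8, 46.2 and 45.6 CPM in the cKO. Its groups overlapped, and its log2 fold change of 0.08 (95% interval -0.44 to 0.60) was 0.35 without control 2, -0.10 without control 1 and -0.03 without cKO 1. Lamb3 (ENSMUSG00000026639, chromosome 1, 193207699 to 193343878), the beta 3 chain, was at 85.1, 140 and 121 CPM in the controls and at 111, 105 and 83.9 CPM in the cKO. It was, with Itga6, 1 of the 2 genes whose lowest library was a cKO library, cKO 3, and its log2 fold change was -0.21 (95% interval -0.67 to 0.26). This was -0.04 without control 2, -0.09 without cKO 3 and -0.39 without control 1 (edgeR unadjusted p = 0.0378, adjusted p = 0.458).

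Col7a1 (ENSMUSG00000025650, chromosome 9, 108953586 to 108984875) encodes the collagen of anchoring fibrils, which in skin is made by keratinocytes and by dermal fibroblasts. It was at 51.7, 152 and 73.4 CPM in the controls and at 61.6, 55.1 and 67.3 CPM in the cKO. Control 2 was 2.95 times control 1, and the cKO libraries lay between control 1 and control 3. The log2 fold change was -0.59 (95% interval -1.41 to 0.22; edgeR unadjusted p = 0.132, adjusted p = 0.981). It went to -0.03 without control 2 and to -0.88 without control 1 (edgeR unadjusted p = 0.0184, adjusted p = 0.434).

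**Figure D2:**
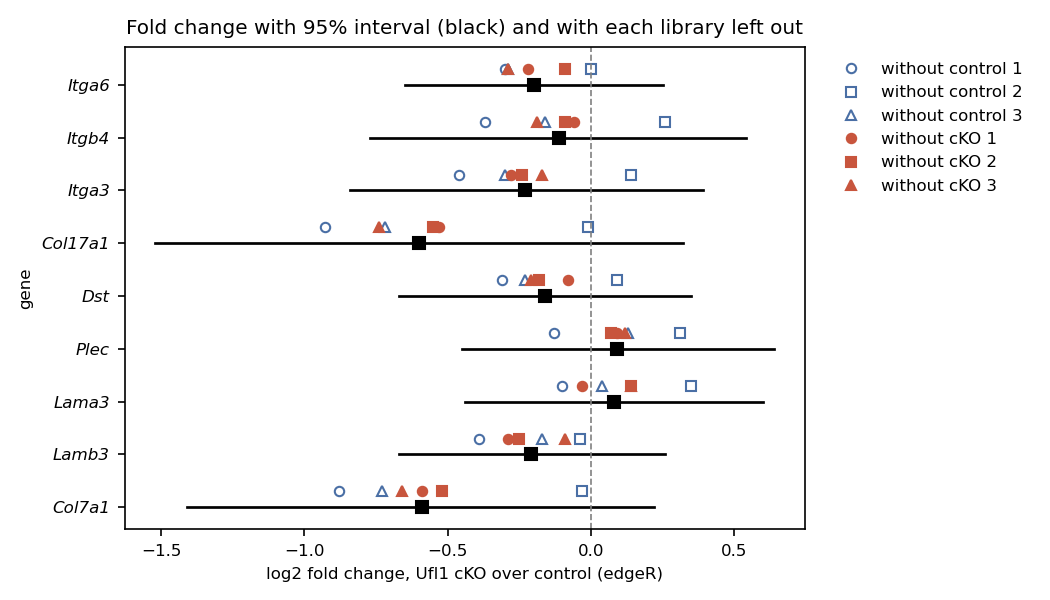
Log2 fold change of each gene, Ufl1 cKO over control, from edgeR (horizontal axis; black square, with the 95% interval as a line) and the same value after leaving out 1 library (open blue symbols for controls, filled red symbols for cKO). Every interval includes 0, and the 2 open symbols farthest apart in each row are those without control 1 and without control 2, as for Col17a1 at -0.93 and -0.01.

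For each of the 9 genes the SD of the controls was larger than the difference between the group means. Control 2 had the highest level of the 6 libraries for 9 of 9 genes, where this held for 27.1% of all genes tested, and control 1 had the lowest for 7 of 9 (25.5% of all genes). The coefficient of variation was larger in controls than in the cKO for 9 of 9 genes, as it was for 71.1% of all genes. In controls it ran from 22.5% (Itga6) to 60.7% (Col17a1), and in the cKO from 3.70% (Plec) to 15.5% (Col17a1). Summed over the 9 genes, the level was 1667, 3604 and 2299 CPM in the controls and 2068, 2104 and 2276 CPM in the cKO. The cKO sums lay close together and below control 3, between the lowest and the highest control.

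Markers of basal keratinocytes moved with the 9 genes across libraries. The mean score of the 9 genes was -0.43, 0.63 and 0.02 in the controls and -0.05, -0.12 and -0.04 in the cKO. A list of 10 basal keratinocyte genes that holds none of the 9 scored -0.61, 0.70 and -0.11 in the controls and -0.09, -0.13 and 0.23 in the cKO, with control 2 highest for 8 and control 1 lowest for 8 of its genes. Over the basal list 5 log2 fold changes were positive and 5 negative, with a median of 0.00, and edgeR called 0. Its groups did not overlap for 2 of the 10 genes, where this held for 10.5% of all genes. These 2 lay in opposite directions and were singled out after their values were seen. Igfbp2, which encodes a binding protein of insulin-like growth factors, had 80.2, 116 and 117 CPM in the controls and 139, 181 and 166 CPM in the cKO, a log2 fold change of 0.64 (SE 0.18; edgeR adjusted p = 0.763). The basal keratin gene Krt15 had 445, 1375 and 730 CPM in the controls and 213, 247 and 374 CPM in the cKO, a log2 fold change of -1.61 (SE 0.41) that DESeq2 called (adjusted p = 0.0103) and edgeR did not (adjusted p = 0.650). The 10 fibroblast genes went the other way, at 0.48, -0.91 and -0.08 in the controls and at 0.22, 0.17 and 0.12 in the cKO. Suprabasal keratinocyte genes scored -0.51, 0.22 and -0.23 in the controls and 0.49, -0.04 and 0.08 in the cKO, so they were high in control 2 but higher still in cKO 1. Endothelial markers stayed between -0.15 and 0.17. Hair follicle genes, 9 of 10 tested, varied more, at 0.73, 0.23 and -1.52 in the controls and 1.16, -0.71 and 0.11 in the cKO. Across the 6 libraries Pearson's r with the score of the 9 genes was 0.94 for the basal list and -0.98 for the fibroblast list, given as a description, since all scores share the same 6 libraries and their scaling. The part of cell composition in the levels of the 9 genes was not tested. Control 1 also had the largest share of mitochondrial counts, 4.59% against 2.28% to 2.97% elsewhere.

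**Figure D3:**
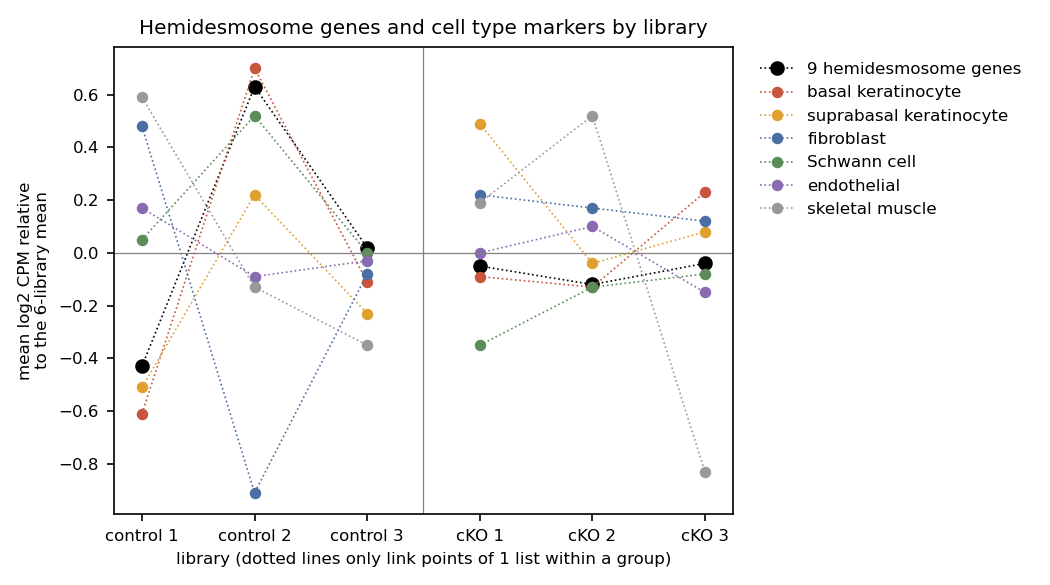
Mean log2 CPM relative to the mean of the 6 libraries (vertical axis) for the 9 hemidesmosome and basement membrane genes (black) and 6 marker lists (colours), by library (horizontal axis). The black and basal keratinocyte points are highest in control 2 (0.63 and 0.70) and lowest in control 1 (-0.43 and -0.61), where the fibroblast points are at -0.91 and 0.48.

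The 9 genes differed in how closely they followed each other. Over the 36 pairs, Pearson's r of log2 CPM across the 6 libraries had a median of 0.79 and ran from 0.40 (Itga6 with Plec) to 0.98 (Col17a1 with Col7a1), and 8 pairs were above 0.90. These values describe 6 libraries in which control 1 and control 2 set most of the range. Itgb4, Itga3, Col17a1 and Col7a1 were each at 0.95 or above against the mean of the other 8 genes, while Itga6, Plec, Lama3 and Lamb3 were at 0.77 to 0.79. The least like partner of Itga3, Plec, Lama3 and Lamb3 was in each case Itga6.

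Among 11024 other genes with a mean of at least 10 CPM, the 8 most like the mean of the 9 were Surf2, Rgl2, Pmvk, Apoc1, Mmab, Rrp1b, Fam83f and Rcc2, with r from 0.992 to 0.998 over the 6 libraries. Pmvk, an enzyme of the mevalonate pathway, was at 27.7, 97.7 and 49.6 CPM in the controls and at 42.6, 39.9 and 42.0 CPM in the cKO, and Rgl2 was at 57.0, 108 and 72.9 CPM and at 71.2, 69.0 and 72.7 CPM. Both show the same order of the controls with a narrow cKO group. They were chosen as the closest of 11024, and the values are a description.

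Levels per length were compared with the deposited FPKM, which divides the count by the gene length and the library size. Col17a1 was the highest of the 9 genes, at a mean of 104 FPKM over the 6 libraries, and was above Plec (27.0 FPKM) in 6 of 6 libraries. Plec, Itga6 (25.0 FPKM) and Itgb4 (24.6 FPKM) did not keep an order: Plec was above Itga6 in 4 and Itga6 above Itgb4 in 3 of 6 libraries. Lamb3 followed at 16.2 FPKM, then Dst at 13.2 FPKM, which Lamb3 exceeded in 5 of 6 libraries. Itga3 at 10.1, Col7a1 at 7.41 and Lama3 at 4.47 FPKM were each below the gene before them in 6 of 6 libraries. These levels and their order depend on the length used, shown here for Dst. Over the 8788 bases of Dst-213 in place of 41155 bases, the same counts would give an FPKM of 51.5, 85.1 and 58.4 in the controls and 52.2, 60.5 and 62.8 in the cKO, and which transcripts the reads came from cannot be read from gene counts.

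Ratios of FPKM within the complexes asked whether partners kept their proportions. Over 8 ratios, of which 7 are given here, no difference between groups passed the two-sided exact permutation test, in which 3 libraries against 3 can give no p below 0.1, and the adjusted p over the 8 was 0.400 to 0.800. Col17a1 over Col7a1 was the steadiest, at 12.4, 14.2 and 14.7 in the controls and at 12.5, 14.3 and 15.0 in the cKO, a span of 1.21-fold, while the controls alone spanned 3.39-fold for Col17a1 and 2.95-fold for Col7a1 in CPM. At the deposited gene lengths, transcripts of the alpha 6 and beta 4 chains, which form 1 integrin, were near equal. Itga6 over Itgb4 was 1.48, 0.905 and 0.984 in the controls and 1.09, 0.865 and 1.01 in the cKO. Control 1 had the highest ratio of the 6 libraries.

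Other pairs spanned a wider range than the 2 collagens. Lama3 over Lamb3 was 0.248, 0.276 and 0.224 in the controls and 0.321, 0.270 and 0.335 in the cKO, a log2 difference of 0.31 (exact permutation p = 0.200, adjusted p = 0.400) in which cKO 2 lay below control 2. Plec over Dst was 1.60, 1.83 and 2.21 in the controls and 2.51, 2.23 and 2.01 in the cKO, a log2 difference of 0.27 (exact permutation p = 0.200). Itga3 over Itga6, the alpha chains of the 2 laminin receptors, was 0.308, 0.471 and 0.418 in the controls and 0.417, 0.480 and 0.325 in the cKO. These 3 ratios overlapped between the groups.

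Relative to Krt14, a keratin of the same basal cells, Col17a1 was lower in each cKO library than in each control. The ratio Col17a1 over Krt14 was 0.0944, 0.0813 and 0.0969 in the controls and 0.0390, 0.0504 and 0.0494 in the cKO. The geometric means were 0.0906 and 0.0460, a log2 difference of -0.98 with an exact permutation p of 0.1, the smallest that this design allows, and an adjusted p of 0.400 over 8 ratios. The difference lay between -1.06 and -0.86 with any 1 library left out. Other genes were lower against Krt14 too, and over all genes above 0 in every library the median difference against Krt14 was -0.54. Control 2, the highest library in the CPM of Col17a1, was the lowest control in this ratio. Krt14 itself was at 1159, 4560 and 1907 CPM in the controls and at 3372, 2670 and 3485 CPM in the cKO, a log2 fold change of 0.32 (SE 0.46) that was 1.05 without control 2 and -0.03 without control 1. The ratio of Itgb4 to Krt14 was 0.0240, 0.0145 and 0.0221 in the controls and 0.0115, 0.0151 and 0.0132 in the cKO, and its groups overlapped.

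After these values were seen, all 9 genes were set against Krt14, Krt5 and Trp63, the transcription factor gene of the basal layer. Against Krt14 the mean log2 ratio was lower in the cKO for 9 of 9 genes (median -0.70), as it was for 93.4% of all genes above 0 in every library. The groups did not overlap for 2, Col17a1 and Col7a1, where 4.87% of all genes were lower without overlap. Against Krt5 it was lower for 7 of 9 (median -0.24), next to 64.7% and a median of -0.09 over all genes, and again Col17a1 (log2 difference -0.53) and Col7a1 (-0.54) did not overlap, where 1.13% of all genes were lower without overlap. Against Trp63 it was lower for 4 of 9 (median 0.01), next to 23.2% and a median of 0.17 over all genes, and 0 of 9 were lower without overlap (1.15% of all genes), with Col17a1 at -0.27 and Col7a1 at -0.29. The separation of the 2 collagens thus depended on the reference gene. Each exact permutation p for a ratio without overlap was 0.1, and ratios to 1 reference share its values. Keratin genes have close paralogs, so the assignment of reads to Krt14 and Krt5 is uncertain.

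**Figure D4:**
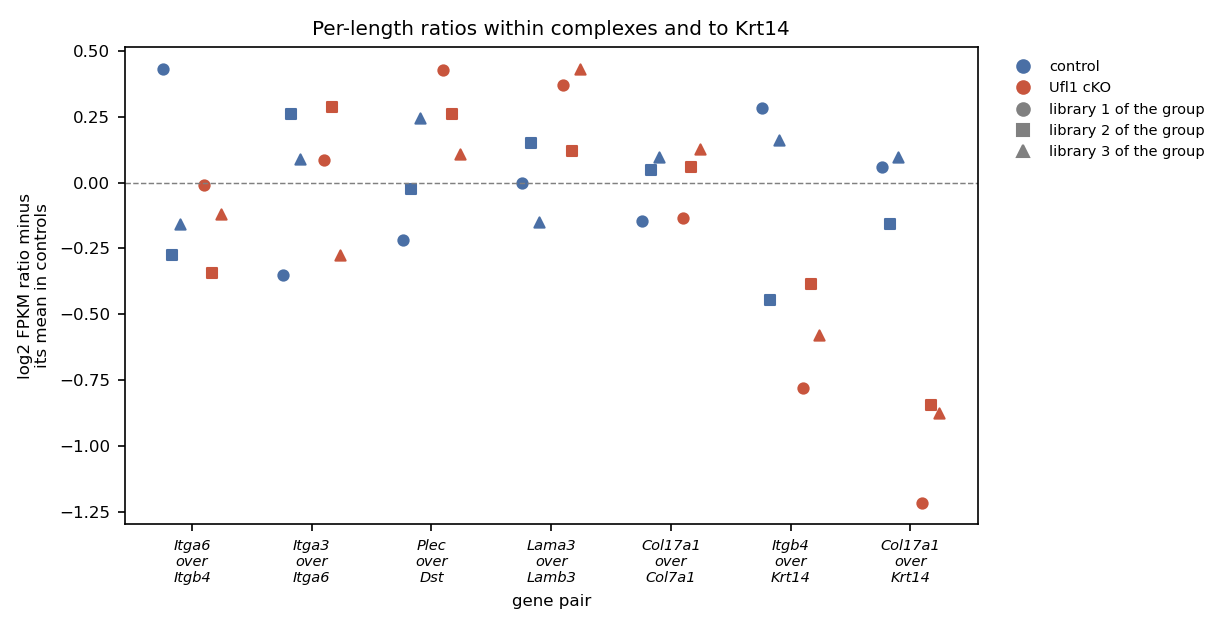
Log2 ratio of FPKM for 7 gene pairs minus its mean in the controls (vertical axis), for control (blue) and Ufl1 cKO (red) libraries, with the shape giving the library number. Col17a1 over Col7a1 stays within a narrow band in all 6 libraries, and Col17a1 over Krt14 is the pair in which the 3 red points lie below the 3 blue points.

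The wider set of genes of the dermal-epidermal junction also had no call. Of 60 listed genes in 4 groups, none of them among the 9, 57 were tested, and edgeR called 0 of 57. An unadjusted p under 0.05 with a higher level in the cKO was found for 5 of them (3.38% of all genes) and with a lower level for 0 (1.95% of all genes), and DESeq2 called 0, where it called 0.525% of all genes. The median log2 fold change of the 57 was 0.13 (0.04 without control 2). Of the 57, 39 were positive and 18 negative, where 8285 of the 17318 genes tested were positive. The groups did not overlap for 8 of the 57, where this held for 10.5% of all genes.

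Of 15 partners and adaptors of the junction 0 were called, with 8 positive values. The median was 0.12 (-0.03 without control 1 and -0.01 without control 2). Cd151, a tetraspanin bound to laminin-binding integrins, was at 137, 134 and 144 CPM in the controls and at 131, 143 and 128 CPM in the cKO, with a log2 fold change of -0.05 (SE 0.12), and did not share the high value of control 2. Lad1, which encodes an anchoring filament protein, was at 61.1, 134 and 105 CPM and at 142, 124 and 126 CPM, a log2 fold change of 0.39 (SE 0.26; 0.13 without control 1 and 0.66 without control 2). Fermt1 (kindlin-1), an integrin activator of keratinocytes, was at -0.46 (SE 0.29; -0.10 without control 2), Erbin, a binding partner of the beta 4 chain, at -0.19 (SE 0.13) with no overlap between the groups, and Tln1 (talin 1) at 0.23 (SE 0.16). Krt5 had a log2 fold change of -0.13 (SE 0.46), which was 0.61 without control 2 and -0.47 without control 1.

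The 21 genes of the basement membrane scaffold had a median of 0.14 (0.01 without control 2). Of these, 15 were positive and 0 were called. Lama5, the laminin alpha chain made by many epithelia, was at 55.0, 167 and 94.3 CPM in the controls and at 75.2, 78.0 and 73.1 CPM in the cKO, and Col4a6, a collagen IV chain of epithelial basement membranes, at 9.96, 33.4 and 13.8 CPM and at 10.3, 11.5 and 11.5 CPM. Both repeat the pattern of Col17a1, with control 2 high and the cKO narrow, and their log2 fold changes of -0.48 (SE 0.34) and -0.78 (SE 0.41) were 0.01 and -0.10 without control 2. Col15a1, of vessel and muscle basement membranes, was at 0.35 (SE 0.18; 0.19 without control 2), and Npnt, a ligand of integrin alpha 8 beta 1, at 0.30 (SE 0.16; 0.17 without cKO 2). Neither had groups that overlapped. In the list of the Fraser complex and dermal collagen VI, 7 of 9 genes were tested and 0 called. The median was 0.32 (0.12 without control 2). Of the 7, 3 were negative, down to -0.32, and the 4 positive ones are those named here. The groups did not overlap for 3 of the 7 (10.5% of all genes). The collagen VI chain genes Col6a3, Col6a2 and Col6a1 were at 0.55 (SE 0.24), 0.35 (SE 0.24) and 0.35 (SE 0.25) without overlap, and at 0.33, 0.12 and 0.12 without control 2, in which fibroblast markers were also lowest. Their part in these values was not tested. Frem1, an extracellular matrix gene of the Fraser complex, was at 0.32 (SE 0.24; 0.17 without cKO 3).

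Proteases that process or shed these proteins, and their inhibitors, held 4 of the 5 genes with an unadjusted p under 0.05 in edgeR. Of 15 listed genes 14 were tested and 0 called. All 4 were higher in the cKO, where 3.38% of all genes were higher at this threshold. Of the 14, 12 were positive and 2 negative, with a median log2 fold change of 0.15 (0.04 without control 2). Mmp3 (stromelysin 1) was at 44.8, 28.6 and 32.7 CPM in the controls and at 118, 49.0 and 50.2 CPM in the cKO, a log2 fold change of 1.04 (SE 0.36; edgeR unadjusted p = 0.0198, adjusted p = 0.857) that was 0.49 without cKO 1. Timp1, an inhibitor of metalloproteases, was at 81.5 CPM in cKO 1 and at 14.6 and 14.9 CPM in the other cKO libraries, against 7.27 to 14.2 CPM in the controls, and Mmp9 (gelatinase B) was at 52.3, 8.38 and 6.44 CPM in the cKO against 2.94 to 7.75 CPM. Their log2 fold changes of 1.79 (SE 0.67) and 2.10 (SE 0.80) were 0.46 and 0.50 without cKO 1. Mmp13 (collagenase 3) was at 4.06, 0.206 and 0.851 CPM in the controls and at 10.1, 3.89 and 6.97 CPM in the cKO, with a log2 fold change of 2.06 (SE 0.84; 3.69 without control 1 and 1.53 without control 2). The neutrophil markers scored 2.24 in cKO 1 and between -1.90 and 0.48 in the other libraries, with 6 of 8 measured and Ly6g and Retnlg below the filter, and their part in the values of Mmp9 and Timp1 was not tested. Of the genes of proteases known to shed collagen XVII, Adam17 was at 0.18 (SE 0.13), Adam10 at 0.06 (SE 0.13) and Adam9 at 0.06 (SE 0.17), and Bmp1, which trims procollagen VII and the laminin chains, was at 0.13 (SE 0.14).

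Log2 fold changes of the 9 genes in the authors' deposited table ran from -0.59 to 0.10, and the adjusted p was 0.9999 for each.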

How the data were processed

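RNA from 6 ear skin libraries, 3 control and 3 Ufl1 cKO, grouped by the labels, was analysed. The submitters' processing notes list HISAT2, HTSeq and mm10 but give no version, parameter or strand setting. The authors deposited raw counts for each gene and, per the file headers, FPKM values scaled by gene length and library size. The authors also deposited a normalized mean count per group, a signal value that is not used here. Log2 fold changes of cKO over control were deposited by the authors, from a test not named in the sources used here. The authors deposited its p-values with their adjusted values beside them. Gene lengths and coordinates are the deposited ones, and the coordinates match GENCODE M21. For Col17a1 the deposited length of 5765 bases differs from its exon length of 6011 bases in that annotation.

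The 17318 genes that passed filterByExpr hold 99.83% to 99.86% of the counts of each library. They were scaled by TMM and fitted in edgeR 4.0.16 under R 4.3.3 with glmQLFit (robust, no covariates), and glmQLFTest gave two-sided p-values. These were adjusted by Benjamini-Hochberg across the 17318 genes, and a gene was called at an adjusted p under 0.05. The SE of a log2 fold change is its size divided by the root of F, and 95% intervals use the degrees of freedom of the test. CPM are TMM-scaled. Scores use log2 CPM with a prior count of 2. Ratios of FPKM were compared by exact permutation. Alternatives were other scalings and filters, DESeq2 1.42.0, limma 3.58.1 (voom, and trend on log2(FPKM + 1) or log2(FPKM + 0.1) at a mean of at least 0.5 FPKM), the replicate number as a block, and leaving out each library. The fits were also run on simulated counts with planted changes, drawn independently for each gene. These counts held no shift shared by many genes of a library, and the outcome is not given here.

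The 9 genes, the lists and the tests were chosen with earlier results of these data known. Named genes are the 9, Ufl1, Cd151, Krt5 and Krt14, the 4 with the smallest p of each related list, and the 8 genes most like the 9. Adam17, Adam10, Adam9, Bmp1, Krt15, Igfbp2 and, as a reference, Trp63 were named after their values were seen. The rule named 1 further gene, which is not reported here, nor is the ratio that used it, although it was among the 8 over which p was adjusted.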

Additional observations from a re-analysis of the deposited data

How the results depend on the processing

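The count of genes called, 2 higher and 1 lower, became 18 and 7 without a filter beyond 1 count, 67 and 24 in DESeq2, 19 and 7 in limma-voom with quality weights, 10 and 2 with the replicate block, and 0 and 0 in limma-voom and in both limma-trend fits. With 1 library left out it ranged from 0 to 2 higher and from 0 to 2 lower. None of the 9 genes and none of the 57 related genes was called under any of these alternatives. The direction of the 9 log2 fold changes was the same in 99 of 99 values from alternatives that kept all 6 libraries, and differed in 7 of 54 with 1 library left out. Those ranges were -0.30 to 0.00 for Itga6, -0.37 to 0.26 for Itgb4, -0.46 to 0.14 for Itga3, -0.31 to 0.09 for Dst, -0.13 to 0.31 for Plec and -0.10 to 0.35 for Lama3. They were -0.47 to 0.61 for Krt5, -0.03 to 1.05 for Krt14 and -0.79 to 0.01 for Lama5. Krt5 was also positive in limma-voom (0.10), with quality weights (0.23), in limma-trend with either pseudocount (0.10 and 0.10) and with the replicate block (0.11). Ratio differences changed sign for Itga6 over Itgb4 (-0.29 to 0.06), Itga3 over Itga6 (-0.14 to 0.19) and Col17a1 over Col7a1 (-0.06 to 0.09 with a library left out, and -0.03 from FPKM + 1), and for Itgb4 over Krt14 with Trp63 in place of Krt14 (0.13, chosen after seeing the data). The cause was not tested. Libraries with the same number deviated from their group means with correlations of 0.216, -0.0431 and -0.038. Between libraries with different numbers the correlations ran from -0.161 to 0.185. With 3 libraries per group these values cannot show whether the numbers pair the samples. Each of the 9 genes had at least 576 counts in each library, and the widest 95% interval of a fold change was -1.52 to 0.32, for Col17a1.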
